A study of Mus musculus with 30 samples.

Results

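The genes described here are Bmp1, Bmp2, Bmp3, Bmp4, Bmp5, Bmp6, Bmp7 and Gdf10, taken by gene name from each of the 14 deposited tables. They are 8 of 20093 genes, and all 8 were present in every table. RNA was measured by 3' RNA sequencing in cells isolated from the intestine of C57BL/6 mice. Every group carried the genotype ColVI-cre, Rosa mTmG, so reporter-negative and unsorted controls held the same alleles. In such animals a Cre recombinase under a collagen VI promoter switches a cell and its descendants from a red (Tomato) to a green (GFP) membrane protein. GFP therefore reports Cre activity at any earlier time, not present transcription of the driver gene. Colon cells came from normal mice and from mice with colitis induced by dextran sulfate sodium (DSS), each as GFP+, GFP- (named Tomato in the labels) and unsorted cells. Small intestine cells came from normal mice only, as GFP high, GFP low, GFP- and unsorted cells. The dose and duration of DSS and the age of the mice were not given in the sources used here. Each of the 10 groups was labelled with 3 replicates, and 29 of the 30 libraries were analysed (for unsorted small intestine, replicates 2 and 3). Sorted cells were labelled as intestinal mesenchymal cells and unsorted cells as intestinal cells. The labels do not say whether replicates came from separate mice, so p-values measure the spread between these samples, which may be technical.

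Bone morphogenetic proteins (BMPs) are secreted dimers of the TGF-beta superfamily. They bind type I and type II receptors, the receptors phosphorylate SMAD1, SMAD5 and SMAD9, and these enter the nucleus with SMAD4 and induce genes such as Id1. In the gut, BMP signalling is high towards the epithelial surface, where it restrains proliferation, and antagonists such as GREM1 made by mesenchyme near the crypt base keep it low around the stem cells. Bmp2 and Bmp4 encode close relatives of one ligand subgroup, and Bmp5, Bmp6 and Bmp7 encode another. Bmp3 and Gdf10 (also called Bmp3b) form a divergent pair that often opposes BMP signalling. Bmp1 is a BMP in name only: it encodes a tolloid-type metalloproteinase that trims procollagens and cleaves the BMP antagonist chordin.

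RefSeq promoters (build GRCm38.p6, the patch series of mm10, 250 bases before to 50 after the start site) were found for 4 of the 8 genes, namely Bmp4, Bmp5, Bmp6 and Gdf10. The promoters of Bmp5 and Gdf10 are shown because these genes lay on opposite sides of the GFP sort, and that of Bmp4 because its level was lower with DSS in GFP+ cells. Letters are 5′ to 3′ on the strand of the gene, and capitals mark matches on either strand to GGGCGG (the GC box) or GGCGCC (a GC-rich element bound by Smads). Bmp5 lies at chr9:75775115-75775414, plus strand, Gdf10 at chr14:33923337-33923636, plus strand, and Bmp4 at chr14:46390620-46390919, minus strand.
Bmp5: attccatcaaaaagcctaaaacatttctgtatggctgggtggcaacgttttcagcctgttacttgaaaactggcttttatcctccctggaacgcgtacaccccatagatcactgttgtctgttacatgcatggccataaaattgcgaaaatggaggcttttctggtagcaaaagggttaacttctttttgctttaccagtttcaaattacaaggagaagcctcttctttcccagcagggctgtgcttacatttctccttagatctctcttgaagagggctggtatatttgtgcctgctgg
Gdf10: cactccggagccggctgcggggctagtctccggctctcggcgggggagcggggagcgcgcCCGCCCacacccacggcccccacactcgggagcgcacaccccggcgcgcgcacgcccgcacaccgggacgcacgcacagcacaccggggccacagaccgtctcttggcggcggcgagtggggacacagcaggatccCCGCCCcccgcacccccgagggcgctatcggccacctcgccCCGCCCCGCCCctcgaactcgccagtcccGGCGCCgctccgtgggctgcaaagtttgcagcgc
Bmp4: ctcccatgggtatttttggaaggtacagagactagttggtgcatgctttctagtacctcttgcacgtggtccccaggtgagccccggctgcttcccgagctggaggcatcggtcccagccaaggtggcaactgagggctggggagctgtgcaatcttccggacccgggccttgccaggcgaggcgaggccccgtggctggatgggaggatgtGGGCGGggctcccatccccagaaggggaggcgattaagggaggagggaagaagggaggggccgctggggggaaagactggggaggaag
The 300 bases of Bmp5 held 43.3% G and C and 4 CpG dinucleotides, with no match to either motif. Those of Gdf10 held 77.3% G and C and 42 CpG dinucleotides, and those of Bmp4 64.0% and 12. The median of all 32851 promoters was 52.7% G and C with 7 CpG dinucleotides, so the promoter of Gdf10 was richer in G and C than 97.8% of them and that of Bmp5 richer than 17.3%. GGGCGG or its reverse complement CCGCCC was found in 35.7% of all promoters, GGCGCC in 11.9%, the forkhead motif TGTTTAC in 3.65% and the TATA box TATAAA in 13.6%. Neither TGTTTAC nor TATAAA occurred in the 4 promoters, which says only that these letters are not in these windows.

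The summed normalised counts of a library ran from 2136684 to 4435964. The depth estimated from the spacing of low values was 1227000 to 4415000 reads in 27 libraries, and 2 libraries of normal colon GFP+ cells were not resolved. Summed levels of 8 fibroblast markers, Col1a1 and Pdgfra among them, were 22352 to 112263 in sorted and 5656 to 69319 in unsorted libraries, so the labelled mesenchymal type was present in every group. Summed levels of 12 epithelial markers were 85 to 1114 in sorted libraries and 2606 to 21541 in unsorted ones, and those of 12 immune markers 189 to 4761 and 10982 to 50557. These ranges pool groups of separate scales, and libraries within a group were uneven. Normal colon unsorted library 1 had epithelial sums of 2606 against 21541 and 19902, and immune sums of 50557 against 15308 and 13920. The immune sum of normal colon GFP- library 3 was 4761 against 1096 and 1261. Markers of subepithelial telocytes (Foxl1, Pdgfra, Wnt5a, Sox6, Wif1, F3), the Foxl1-expressing cells under the epithelium, summed to 5713 to 6600 in colon GFP+ and 1242 to 1574 in colon GFP- libraries. Markers of Cd34-positive fibroblasts summed to 4584 to 10668 and 18048 to 21781 in the same libraries. Pericyte markers summed to 981 to 1117 in normal GFP+ and 1048 to 1251 in normal GFP- libraries, and to 1994 to 2351 and 1041 to 1572 with DSS. Smooth muscle markers summed to 2990 to 4738 and 705 to 1634 in the normal and to 1401 to 1961 and 728 to 1026 in the DSS colon. The part of these marker differences in the results below was not tested, and in bulk cells a change in the share of a cell type and a change in RNA per cell cannot be told apart. Values of normal colon, DSS colon and small intestine are each on their own scale, and a further scale joins the 12 sorted colon libraries. Levels are normalised counts not divided by gene length, so they are compared between groups and not between genes.

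Values of Bmp6 and Bmp4 in the colon carry a limit that comes before any result. Bmp6 (chr13:38345716-38499728, plus strand, in the deposited tables) ends 545 bases from the end of Txndc5 on the minus strand, and in GENCODE vM21 its last base, 38500302, lies beyond the 3' end of Txndc5 at 38500273. Txndc5 encodes a protein disulfide isomerase of the endoplasmic reticulum. The Bmp6 value was 0.942 to 1.006 times the Txndc5 value over the 12 sorted colon libraries and 0.562 to 0.777 times over the 6 unsorted ones. In normal colon GFP- cells, for example, the Bmp6 levels were 480, 653 and 678 and those of Txndc5 477, 678 and 717. In the small intestine, where both genes were also listed, the ratio ran from 0.0396 to 1.27 over 11 libraries. Bmp4 overlaps the antisense gene Gm15217 at its 3' end, and its colon level was 1.01 to 1.20 times that of Gm15217 in 18 libraries. Over opposite-strand gene pairs whose 3' ends lay within 1000 bases of each other, 27.9% to 34.3% had values within 10% of each other in every library of a colon table, against 0% to 0.197% in the small intestine tables. Values of Bmp6 and Txndc5 in sorted colon cells, and of Bmp4 and Gm15217 in all colon cells, therefore cannot be told apart. In unsorted colon cells the values of Bmp6 and Txndc5 came apart, and whether they share reads there was not determined. No other gene of the tables lay within 1000 bases of the deposited 3' end of Bmp1, Bmp2, Bmp3, Bmp5, Bmp7 or Gdf10. For Gdf10 the end in GENCODE vM21 lies 2703 bases further, so this search did not reach it. Whether reads near that end were counted was not determined.

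**Figure D1:**
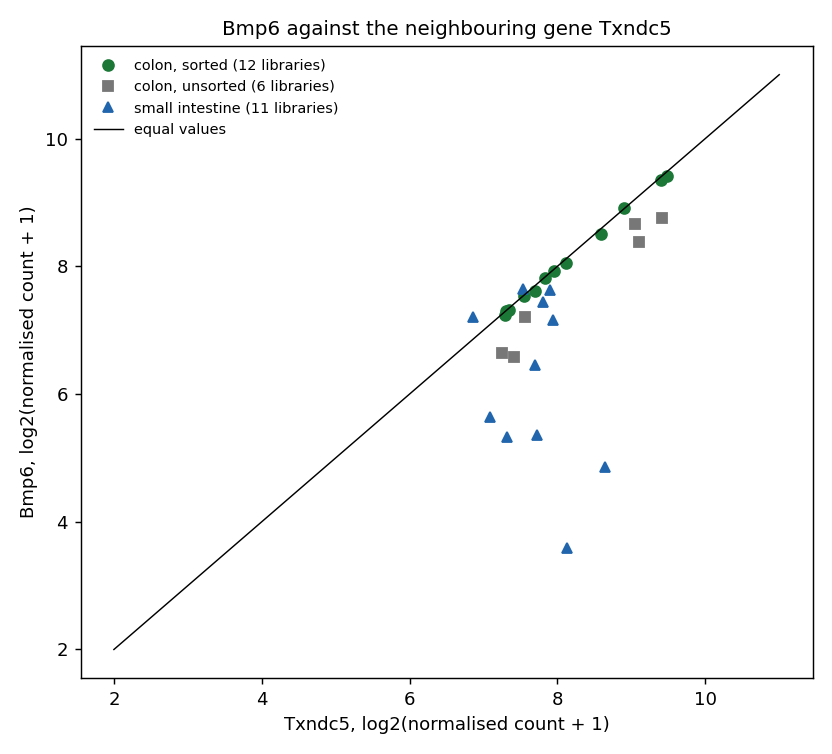
Bmp6 (y axis) against Txndc5 (x axis), both as log2(normalised count + 1), with 1 point per library and a line where both values are equal. The 12 sorted colon libraries lie on the line and the 6 unsorted colon libraries under it. The 11 small intestine libraries spread from above the line to far below it.

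The first question was which ligands differed between GFP+ and GFP- cells of the normal colon. Of the 8 genes, 6 passed the test (limma, Benjamini-Hochberg adjusted p under 0.05), 4 higher and 2 lower in GFP+ cells, where 5.98% of 13346 genes passed in either direction (2.97% higher and 3.01% lower). Bmp2, Bmp3, Bmp5 and Bmp7 were higher in GFP+ cells, and Gdf10 and the inseparable pair Bmp6 and Txndc5 were lower. The median log2 fold change of the 8 genes was 1.31, against 0.00 for all genes. In the DSS colon 5 of 8 passed, 4 higher and 1 lower, where 17.1% of 12570 genes passed (8.22% higher and 8.9% lower), and Bmp2, Bmp3, Bmp5, Bmp7 and Gdf10 kept the directions they had in the normal colon. The median there was 1.20, against 0.01 for all genes.

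**Figure D2:**
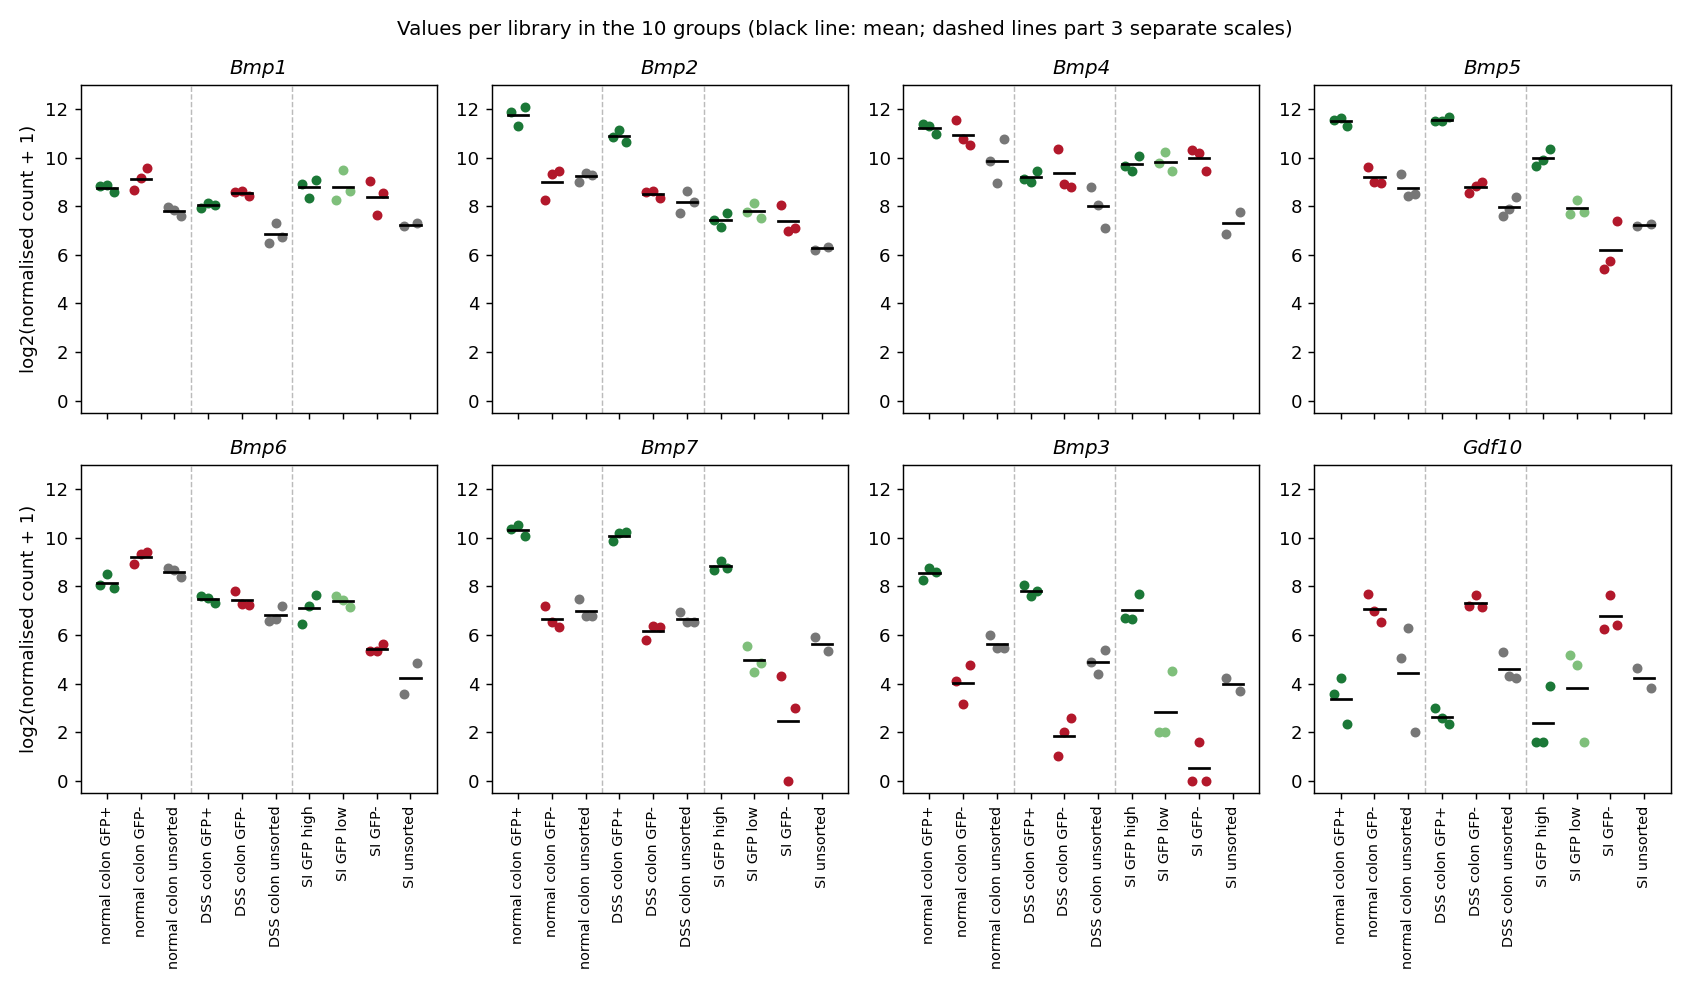
Level of each gene per library, as log2(normalised count + 1), in the 10 groups, with GFP+ and GFP high in dark green, GFP low in light green, GFP- in red, unsorted in grey and the group mean as a black line. Dashed lines part the 3 scales, across which levels are not compared. Bmp3 and Bmp7 stand high in the GFP+ and GFP high cells and Gdf10 in the GFP- cells.

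Bmp1, the procollagen proteinase, did not pass in either condition. In the normal colon (chr14:70474557-70520260, minus strand) its levels were 452, 470 and 387 in GFP+ and 405, 572 and 773 in GFP- cells. The ranges overlapped, with a log2 fold change of -0.37 ± 0.28 (SE, n = 3 and 3) and a limma adjusted p of 0.58. In the DSS colon GFP+ cells had 240, 281 and 268 and GFP- cells 388, 393 and 345. Every DSS GFP+ library lay below every GFP- library, by -0.51 ± 0.17 on the log2 scale, but the limma adjusted p of 0.05, before rounding, lay just over the threshold. By limma it passed with a minimum mean of 50 (adjusted p = 0.042) and with the replicate number as a block (0.046), which made 6 of the 8 genes.

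Bmp2 (chr2:133552159-133562885, plus strand) separated the colon populations fully. Normal GFP+ libraries held 3753, 2506 and 4315, against 306, 649 and 697 in GFP- and 518, 669 and 634 in unsorted libraries. The lowest GFP+ library was far above the highest GFP- one, and the log2 fold change was 2.73 ± 0.36 (SE) with a limma adjusted p of 0.0013. In the DSS colon the levels were 1875, 2288 and 1604 in GFP+, 385, 400 and 324 in GFP-, and 210, 391 and 288 in unsorted cells. The difference there was 2.37 ± 0.18 (limma adjusted p = 5.1e-07). GFP- and unsorted cells overlapped in both conditions.

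Bmp4 (chr14:46383520-46390669, minus strand), whose colon level cannot be told apart from that of Gm15217, did not separate the populations. Its levels in the normal colon were 2654, 2549 and 2046 in GFP+ and 2988, 1728 and 1467 in GFP- cells, and 945, 502 and 1734 in unsorted cells. Ranges of the sorted cells overlapped, with a log2 fold change of 0.29 (95% interval -0.41 to 0.99, limma adjusted p = 0.73). DSS GFP+ libraries held 554, 508 and 703 and GFP- libraries 1329, 485 and 448. GFP- library 1 was the highest of its group in both conditions, and without it the DSS difference of -0.18 (limma adjusted p = 0.78) turned to 0.32 (adjusted p = 0.24). In that GFP- library of the DSS colon the summed fibroblast (81499 against 61037 and 61620), smooth muscle (1026 against 728 and 832) and glia and neuron (139 against 78 and 94) markers were the highest of its group. Its Cd34-positive fibroblast (18065 against 20786 and 18229), telocyte (1242 against 1574 and 1512) and endothelial (205 against 274 and 256) markers were the lowest, and the part of these differences in the Bmp4 value was not tested.

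Bmp5 and Bmp7, of the subgroup that also holds Bmp6, were both several-fold higher in GFP+ cells. Bmp5 (chr9:75775364-75900310, plus strand), whose promoter of low CpG content is printed above, stood at 3027, 3208 and 2561 in normal GFP+ and 776, 509 and 503 in GFP- cells. The gap was wide relative to the replicates, at 2.32 ± 0.27 on the log2 scale (limma adjusted p = 0.00069). With DSS the levels were 2909, 2966 and 3234 in GFP+ and 377, 460 and 509 in GFP- cells, a log2 fold change of 2.77 ± 0.18 (limma adjusted p = 9.2e-08). Bmp7 (chr2:172868012-172940321, minus strand) showed the same split with a larger fold. Its levels were 1335, 1484 and 1086 in normal GFP+ against 144, 91 and 79 in GFP- cells, and 944, 1160 and 1194 against 54, 81 and 80 with DSS. The log2 fold changes were 3.66 ± 0.28 (limma adjusted p = 0.00011) and 3.94 ± 0.20 (limma adjusted p = 2e-08), and no GFP+ library overlapped a GFP- library.

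Bmp6, read together with Txndc5 in the colon, was lower in GFP+ cells of the normal colon. Levels were 264, 364 and 242 in GFP+ and 480, 653 and 678 in GFP- cells, so each GFP+ library was below each GFP- library. The log2 fold change of -1.06 ± 0.27 had a limma adjusted p of 0.041, close to the threshold. By limma the call was lost without GFP- library 2 (adjusted p = 0.16) or 3 (0.12), without GFP+ library 1 (0.15) or 3 (0.18), and with equal library totals (0.067), all groups in 1 fit (0.055) or no trend and robust variance (0.082). In the DSS colon both populations stood at like levels, 194, 184 and 159 in GFP+ and 225, 156 and 150 in GFP- cells, with a log2 fold change of 0.04 (95% interval -0.39 to 0.46, limma adjusted p = 0.93), which changed sign with some libraries left out.

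Bmp3 and Gdf10, the divergent pair, lay at the opposite ends of the sort. Bmp3 (chr5:98854415-98884396, plus strand) was at 304, 428 and 391 in normal GFP+ cells and at 16, 8 and 26 in GFP- cells, with unsorted cells between them at 63, 43 and 43. With DSS it was at 263, 194 and 225 in GFP+, at 1, 3 and 5 in GFP- and at 29, 20 and 41 in unsorted cells. GFP+, unsorted and GFP- cells were separated in both conditions, in the same order. The log2 fold change of GFP+ over GFP- cells was 4.53 ± 0.38 in the normal colon (limma adjusted p = 0.00015) and 5.96 ± 0.37 in the DSS colon (limma adjusted p = 8.2e-08), the latter 4.88 with a pseudocount of 5. By log2 fold change it ranked 10 from the top of 13346 genes and 3 from the top of 12570.

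Gdf10 (chr14:33923587-33935280, plus strand, its end in GENCODE vM21 lying 2703 bases further) had the reverse pattern. Its levels were 11, 18 and 4 in normal GFP+ against 205, 126 and 93 in GFP- cells, and 7, 5 and 4 against 145, 199 and 140 with DSS. GFP- libraries were all above GFP+ libraries, which rest on few reads. Unsorted cells were at 32, 78 and 3 in the normal and 38, 19 and 18 in the DSS colon. The log2 fold changes of GFP+ over GFP- cells were -3.69 ± 0.49 (limma adjusted p = 0.0013) and -4.69 ± 0.29 (limma adjusted p = 8.2e-08), ranking 16 and 3 from the bottom. With a pseudocount of 5 the DSS value was -4.00.

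In the authors' deposited table for the normal colon, 3 of the 8 genes had an FDR under 0.05, namely Bmp3, Bmp7 and Gdf10, where 0.563% of 16688 genes did. The authors' deposited table for the DSS colon gave 5 of 8, namely Bmp2, Bmp3, Bmp5, Bmp7 and Gdf10, where 1.93% of 15964 genes did.

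**Figure D3:**
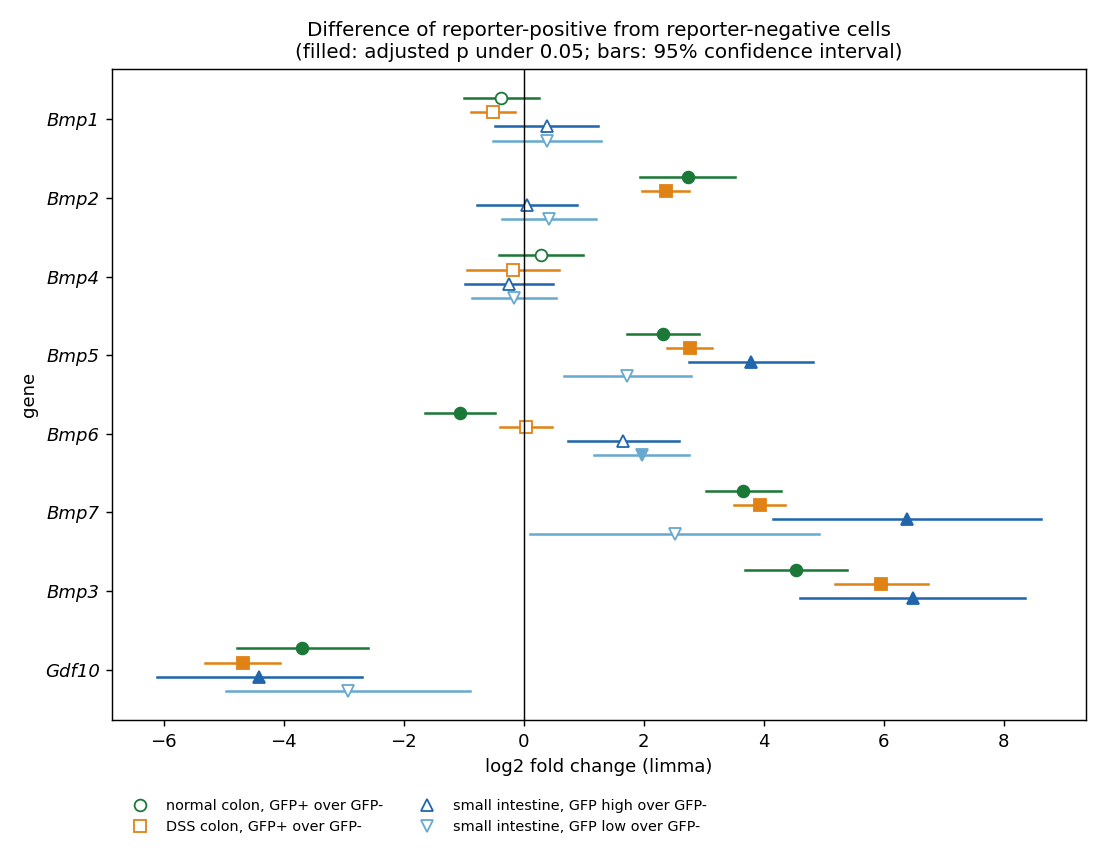
Log2 fold change (x axis) of each gene (y axis) in reporter-positive over GFP- cells in 4 comparisons, from limma, with 95% confidence intervals and filled symbols where the adjusted p was under 0.05. Bmp3, Bmp5 and Bmp7 lie right of 0 and Gdf10 left of it in each comparison shown, while Bmp2 lies far from 0 in the 2 colon comparisons. Bmp3 is not drawn for GFP low cells, where its mean was under 10.

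The second question was how these genes differed between DSS and normal colon within each population, on the scale common to the 12 sorted colon libraries. By their labels, normal and DSS colon libraries belong to separate series of library numbers. Any difference between DSS and normal colon given here therefore cannot be told apart from a difference between these series. In GFP+ cells 1 of the 7 genes tested passed, Bmp4, which was lower, where 19.7% of 12976 genes passed (9.46% lower). In GFP- cells 1 of 8 passed, Bmp6 with Txndc5, which was lower, where 10.3% of 13025 genes passed (4.27% lower). Both shares lie close to those of all genes. Leaving out 1 library gave 2 genes in GFP+ cells without normal library 2, and in GFP- cells 0 without DSS library 2 or 3 and 2 without normal or DSS library 1. Scaling libraries to equal totals shifted the median of all genes by -0.125 (log2) in either population. It also moved the split of all calls from 1328 higher and 1227 lower to 991 and 1585 in GFP+ cells, and from 785 and 556 to 612 and 776 in GFP- cells.

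Bmp4 levels in GFP+ cells were 2219, 2138 and 1723 in the normal and 648, 597 and 824 in the DSS colon. No library of one condition reached the range of the other, and the log2 fold change was -1.56 ± 0.21 (SE, n = 3 and 3, limma adjusted p = 0.00032). Gm15217 moved with it (2091, 1994 and 1564 against 583, 497 and 724). In GFP- cells Bmp4 was at 2514, 1458 and 1235 in the normal and 1560, 572 and 526 in the DSS colon. These ranges overlapped through DSS library 1 alone, and the log2 fold change of -1.09 ± 0.41 did not pass (limma adjusted p = 0.11), while it was -1.59 (adjusted p = 0.025) without that library. By limma the value of -1.09 passed with the replicate number as a block (adjusted p = 0.022) and with all groups in 1 fit (0.049). Whether the change differed between the populations was tested directly, and the difference was -0.47 (95% interval -1.54 to 0.60, limma adjusted p = 0.84). Marker lists moved in the same GFP+ libraries, given here on the common scale. Summed fibroblast markers were 62608 to 70177 in the normal and 31875 to 35796 in the DSS colon, with 6 of 8 markers lower by limma. Those of smooth muscle went from 2511 to 3987 down to 1646 to 2298 (1 of 6 higher and 1 lower), and those of interstitial cells of Cajal from 363 to 499 down to 151 to 182 (2 of 2 tested lower). Pericyte markers went the other way, from 821 to 940 up to 2336 to 2761 (3 of 6 higher), as did telocyte markers, from 4970 to 5533 up to 6683 to 7658 (1 of 6 higher). The part of these shifts in the Bmp4 value was not tested.

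Bmp6 with Txndc5 in GFP- cells was at 404, 551 and 571 in the normal and 265, 184 and 176 in the DSS colon. Every DSS library lay below every normal one, by -1.29 ± 0.26 (limma adjusted p = 0.0096), and the call was lost without DSS GFP- library 2 (adjusted p = 0.072) or 3 (0.065). In GFP+ cells the levels of 220, 306 and 204 and of 227, 217 and 186 overlapped, with a log2 fold change of -0.19 (95% interval -0.65 to 0.27, limma adjusted p = 0.55). The difference of the responses, 1.10 ± 0.33, had an unadjusted p of 0.0043 and a limma adjusted p of 0.44.

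The ligands that marked GFP+ cells did not pass the test of DSS against normal cells. Bmp5 in GFP+ cells was at 2531, 2690 and 2156 in the normal and 3402, 3484 and 3787 in the DSS colon. The DSS libraries were all higher, by 0.54 ± 0.20, with a limma adjusted p of 0.071, which was 0.048 without normal GFP+ library 2. Bmp2 (-0.37, 95% interval -0.89 to 0.15), Bmp3 (-0.24, -0.69 to 0.22) and Bmp7 (0.24, -0.20 to 0.68) overlapped between the conditions, as did Bmp1 (-0.24, -0.65 to 0.16), with limma adjusted p of 0.29 to 0.45. Gdf10 had a mean under 10 in GFP+ cells of both conditions (9, 15 and 3 against 8, 6 and 5) and was not tested.

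In GFP- cells Bmp3 was at 13, 7 and 22 in the normal and at 1, 4 and 6 in the DSS colon. Each DSS library was lower than each normal one, but the log2 fold change of -1.73 ± 0.69 did not pass (limma adjusted p = 0.13), except with all groups in 1 fit (0.011). Gdf10 was at 173, 107 and 78 and at 170, 235 and 164, overlapping through normal library 1, with a log2 fold change of 0.72 ± 0.31 (limma adjusted p = 0.16). Without normal GFP- library 1 it was 1.03 (limma adjusted p = 0.019). Bmp1 (-0.11), Bmp2 (-0.01), Bmp5 (0.09) and Bmp7 (-0.04) overlapped between conditions, with limma adjusted p of 0.83 to 0.99. The direction of these 4 turned with some library left out, and that of Bmp5 also with equal totals.

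Over the 4 sorted colon groups, the DSS response of GFP+ cells minus that of GFP- cells passed in 0 of 8 genes (limma), where 0.0519% of 13488 genes passed. At an unadjusted p under 0.05 there were 2 of the 8, Bmp6 and Bmp3, and 1081 of all genes. In the authors' deposited tables of DSS against normal cells 0 of the 8 genes had an FDR under 0.05 in either population, where 0.27% of 16653 genes did for GFP+ and 0.464% of 16386 genes for GFP- cells.

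**Figure D4:**
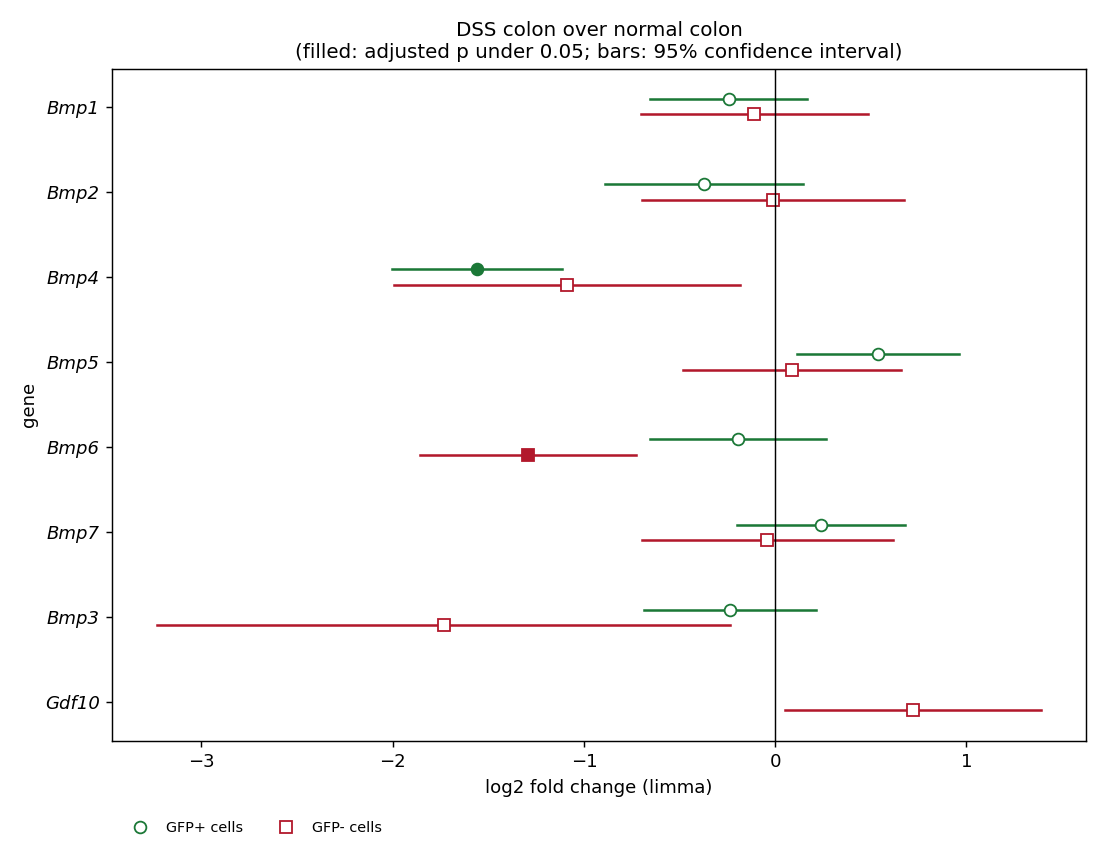
Log2 fold change (x axis) of each gene (y axis) in DSS over normal colon, from limma, for GFP+ (green circles) and GFP- (red squares) cells, with 95% confidence intervals and filled symbols where the adjusted p was under 0.05. Bmp4 in GFP+ cells, at -1.56, and Bmp6 with Txndc5 in GFP- cells, at -1.29, are the filled symbols. Gdf10 is drawn for GFP- cells only.

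The third question was whether the small intestine showed the same split. The sorted groups were also described by the summed levels of Procr and Col6a1. These genes were chosen with earlier results of these data known, and GFP reports earlier Cre activity, so their levels cannot test the sort. In the normal colon they were 6662 to 8904 in GFP+ and 1661 to 2454 in GFP- libraries. With DSS they were 5876 to 6266 and 1118 to 1487. Small intestine groups overlapped, at 1300 to 3696 in GFP high, 2038 to 3586 in GFP low and 1149 to 2776 in GFP-. In GFP high over GFP- cells 4 of 8 genes passed, Bmp3, Bmp5 and Bmp7 higher and Gdf10 lower, where 0.894% of 12412 genes passed (0.395% higher and 0.5% lower). GFP low over GFP- cells gave 1 of the 7 genes tested, Bmp6, where 0.675% of 12445 genes passed (0.112% higher), and GFP high over GFP low cells gave 3 of 8, Bmp3, Bmp5 and Bmp7, where 0.384% of 12226 passed (0.368% higher). The medians of the genes tested were 1.02, 0.42 and -0.05, against 0.06, 0.09 and -0.03 for all genes. Without trend and robust variance the counts fell to 1 (Bmp3), 0 and 0, a minimum mean of 50 left 2 (Bmp5 and Bmp7) in the first, and GFP high over GFP low cells gave 0 also when all groups entered 1 fit. The first count was 2 without GFP- library 3 or any 1 GFP high library, the second 0 without any 1 library except GFP- library 3, and the third 1 without GFP high library 3 or GFP low library 1. Marker lists differed between the same cells. Summed telocyte markers were 2031 to 3882 in GFP high, 689 to 921 in GFP low and 694 to 1028 in GFP- libraries, and those of Cd34-positive fibroblasts 8416 to 11468, 12807 to 22215 and 22598 to 24870. Those of smooth muscle were 1886 to 3875, 453 to 722 and 483 to 1611. The part of these differences in the results for the small intestine was not tested.

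Bmp3 was at 102, 99 and 207 in GFP high, 3, 3 and 22 in GFP low and 0, 2 and 0 in GFP- cells, with unsorted cells at 18 and 12. GFP high libraries were far above all the rest. The GFP- group rested on about 1 read against 448 in GFP high cells, a ratio per read of 397 with a 95% exact counting interval of 70.8 to 15700, which covers counting error only. On the log2(value + 1) scale the fold change was 6.48 ± 0.87 (limma adjusted p = 0.0046), and it was 4.57 with a pseudocount of 5. By limma the call was lost without GFP high library 3 (adjusted p = 0.1). GFP high exceeded GFP low cells by 4.17 ± 0.69 (limma adjusted p = 0.019), a call lost without any 1 GFP high library (adjusted p = 0.071 to 0.17) and without GFP low library 1 (0.099). That value was 3.47 with a pseudocount of 5 and 5.01 without GFP low library 3.

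Bmp5 was at 819, 970 and 1301 in GFP high, 207, 310 and 218 in GFP low, 42, 53 and 167 in GFP- and 144 and 153 in unsorted cells. The sorted groups followed the order of GFP without overlap. GFP high exceeded GFP- cells by 3.79 ± 0.47 (limma adjusted p = 0.0032; 4.39 without GFP- library 3) and GFP low cells by 2.06 ± 0.31 (limma adjusted p = 0.0084). By limma the second call was lost without GFP high library 3 (adjusted p = 0.056), GFP low library 1 (0.063) or GFP low library 3 (0.06). GFP low exceeded GFP- cells by 1.73 ± 0.48, which did not pass (limma adjusted p = 0.12) except without GFP- library 3 (0.049).

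Bmp7 followed Bmp5, at 413, 533 and 429 in GFP high, 46, 21 and 28 in GFP low, 19, 0 and 7 in GFP- and 59 and 39 in unsorted cells. Again no sorted group overlapped another. The log2 fold change of GFP high over GFP- cells was 6.39 ± 0.97 (limma adjusted p = 0.027), lost without GFP- library 3 (0.062) or any 1 GFP high library (0.056 to 0.088). The value was 5.35 with a pseudocount of 5, 7.33 without GFP- library 1 and 5.17 without GFP- library 2. That of GFP high over GFP low cells was 3.88 ± 0.37 (limma adjusted p = 0.0011). GFP low over GFP- cells gave 2.52 ± 1.11 (limma adjusted p = 0.28).

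Gdf10 was at 2, 2 and 14 in GFP high, 35, 26 and 2 in GFP low, 75, 198 and 85 in GFP- and 24 and 13 in unsorted cells. GFP- libraries were above all the others. The log2 fold change of GFP high over GFP- cells was -4.41 ± 0.79 (limma adjusted p = 0.023), and the call was lost without any 1 library except GFP high library 3 (adjusted p = 0.05 to 0.09). The value was -3.54 with a pseudocount of 5 and -5.19 without GFP high library 3. GFP high and GFP low cells overlapped (-1.48, 95% interval -4.00 to 1.05, limma adjusted p = 0.74).

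Bmp6 and Txndc5 had different values in the small intestine. Bmp6 was at 87, 146 and 199 in GFP high, 196, 172 and 142 in GFP low, 39, 40 and 49 in GFP- and 11 and 28 in unsorted cells. Both GFP groups were above GFP- cells, without overlap, and overlapped each other. Summed levels of 6 pericyte markers followed the same order, at 3443 to 5747 in GFP high, 5582 to 8290 in GFP low and 1856 to 2588 in GFP- libraries, with 2 of 6 and 1 of 6 markers higher than in GFP- cells by limma. Their part in the Bmp6 values was not tested. GFP low over GFP- cells gave 1.96 ± 0.36 (limma adjusted p = 0.041), a call lost without any 1 library (adjusted p = 0.067 to 0.18), and GFP high over GFP- cells gave 1.66 ± 0.43 (limma adjusted p = 0.12). Txndc5 was at 207, 115 and 185 in GFP high, 238, 222 and 245 in GFP low and 158, 210 and 135 in GFP- cells.

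Bmp2, which separated the colon populations, did not separate those of the small intestine, with 170, 141 and 211 in GFP high, 216, 277 and 184 in GFP low and 266, 125 and 137 in GFP- cells. GFP- cells overlapped both GFP groups through GFP- library 1 alone. The log2 fold change of GFP high over GFP- cells was 0.05 (95% interval -0.78 to 0.88, limma adjusted p = 0.97). That library had the highest endothelial (1531 against 451 and 195) and smooth muscle (1611 against 568 and 483) marker sums of its group. Its markers of interstitial cells of Cajal were the lowest (19 against 48 and 47). The part of these differences in the Bmp2 value was not tested. Bmp4 was at 813, 704 and 1081 in GFP high, 892, 1200 and 693 in GFP low and 1269, 1166 and 704 in GFP- cells, and Bmp1 at 487, 322 and 540, at 307, 714 and 392 and at 524, 197 and 369. Neither gene passed, with limma adjusted p of 0.63 to 1 in the 3 comparisons of sorted cells. The 95% intervals of GFP high over GFP- cells were wide, at -0.98 to 0.48 for Bmp4 and -0.47 to 1.24 for Bmp1. A difference within these intervals may have been missed.

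The authors' deposited table of GFP high against GFP- cells gave an FDR under 0.05 for 4 of the 8 genes, Bmp3, Bmp5, Bmp7 and Gdf10, where 0.469% of 15129 genes did. In the authors' deposited table of GFP low against GFP- cells 0 of 8 did, where 0.313% of 15019 did. For GFP high against GFP low cells the authors' deposited table gave 1 of 8, Bmp7, where 0.133% of 15030 did.

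A comparison added after the values were seen tested whether the effect of GFP differed between tissues, as GFP high over GFP- cells of the small intestine minus GFP+ over GFP- cells of the normal colon. It passed in 1 of 8 genes, Bmp6, where 0.0924% of 12981 genes passed (0.0385% higher). The difference for Bmp6 was 2.72 ± 0.46 (limma adjusted p = 0.034). The call was lost without any 1 of 10 of the 12 libraries (adjusted p = 0.062 to 0.14), the exceptions being small intestine GFP- library 3 and GFP high library 1. It rests on a colon value that cannot be told apart from Txndc5, so what the Bmp6 value counts may differ between the tissues. For Bmp2 the difference was -2.68 ± 0.53 (limma adjusted p = 0.069, and 0.049 with a pseudocount of 5). Tissue, library series and scale differ between the 2 sets of tables, and counting may differ, so these cannot be told apart in this comparison.

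Unsorted cells gave the background of the whole isolate. Normal colon GFP+ cells exceeded them in 6 of 8 genes, where 21.8% of 14649 genes passed in either direction (7.72% higher), and DSS colon GFP+ cells differed in all 8 (7 higher, Gdf10 lower), where 37.1% of 13662 genes passed (15.8% higher and 21.3% lower). The largest of these, in log2 fold change, were Bmp7 (3.33 ± 0.32) in the normal and Bmp5 (3.59 ± 0.24) in the DSS colon. Both counts include Bmp4, whose colon value cannot be told apart from that of Gm15217. That of DSS GFP+ cells includes Bmp6, whose value matched Txndc5 in sorted but not in unsorted colon libraries. Mean levels in DSS GFP+ and unsorted cells were 179 and 113 for Bmp6, and 184 and 169 for Txndc5. Normal colon GFP- cells differed from unsorted cells in 2 of 8, Bmp1 higher and Bmp3 lower, where 18.8% of 14617 genes passed (5.81% higher and 13% lower). DSS colon GFP- cells differed in 5 of 8, 4 higher and 1 lower, where 33% of 13662 genes passed (13.7% higher and 19.3% lower). Equal library totals moved the split of all calls there from 1871 higher and 2638 lower to 1378 and 3152. Bmp3 was below unsorted cells in both (-1.64 ± 0.49 and -3.04 ± 0.51, limma adjusted p = 0.04 and 0.00066), the latter -2.12 with a pseudocount of 5. Gdf10 was above unsorted cells in DSS GFP- cells (2.71 ± 0.32, limma adjusted p = 4.7e-05). The limma count for normal GFP- cells was 0 without unsorted library 3 or GFP- library 2. It was 1 without unsorted library 1 or GFP- library 1 or 3. That for DSS GFP- cells was 3 without unsorted library 2. Fewer genes had an FDR under 0.05 in the authors' deposited DESeq test. Normal GFP+ cells gave 4 of 8 (1214 of all 18042 genes). DSS GFP+ cells gave 5 of 8 (1823 of 16837), without Bmp1, Bmp4 and Bmp6. Normal GFP- cells gave 0 of 8 (1209 of 17938) and DSS GFP- cells 3 of 8 (1625 of 16763).

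In the small intestine, with 2 unsorted libraries, GFP high cells exceeded unsorted cells in 7 of 8 genes (17.2% of 13369 genes passed, 6.13% higher), GFP low cells in 4 of 8 (22.8% of 13434, 9.13% higher) and GFP- cells in 2 of 8, Bmp4 and Gdf10 (11.5% of 13374, 4.58% higher). Bmp4 was at 114 and 217 in unsorted cells and above that in every sorted library. Its log2 fold changes over unsorted cells were 2.43 ± 0.38, 2.52 ± 0.37 and 2.68 ± 0.40 in GFP high, GFP low and GFP- cells (limma adjusted p = 0.0036, 0.0017 and 0.0083). These counts depend on the unsorted libraries: without unsorted library 2 they were 0, 0 and 0, and without unsorted library 3 they were 0, 2 and 0, with the lone library assumed to vary like the other group. That of GFP- cells was also 1 without GFP- library 3. In the authors' deposited DESeq test GFP high cells gave 3 of 8 genes with an FDR under 0.05, Bmp5, Bmp6 and Bmp7 (835 of all 15850 genes). GFP low cells gave 1 of 8, Bmp6 (1000 of 15834). GFP- cells gave 1 of 8, Bmp3, which was lower than in unsorted cells (-3.26, FDR 0.035, 558 of 15655). Bmp4 (FDR 0.15) and Gdf10 (0.32) did not pass there in GFP- cells.

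Among 13488 genes, likeness of pattern was measured as Pearson's r of log2(value + 1) over the 12 sorted colon libraries, which share 4 groups, so that any gene split by the sort scores high. Bmp5 and Bmp7 were each other's closest gene, at r = 0.993. Next to Bmp5 were Chst2, a sulfotransferase gene (0.991), and Wnt5a, a ligand gene (0.982), and next to Bmp7 were Sox6, a transcription factor gene (0.987), and Chst2 (0.986). Bmp3 was closest to Foxl1, the winged-helix factor of the telocyte list (0.988), and Bmp2 to Gdnf, a neurotrophic factor gene (0.981). Gdf10 was closest to Slit3, a guidance ligand gene (0.994), then Pde3a (0.980) and Sfrp2, a secreted Wnt antagonist gene (0.976). Bmp4 and Bmp6 were closest to the neighbours from which their values here cannot be told apart, Gm15217 (0.998) and Txndc5 (0.999). Bmp1 had no gene above 0.910 (Dtnbp1). Between members, r was 0.894 to 0.993 within Bmp2, Bmp3, Bmp5 and Bmp7, and -0.963 to -0.927 between those and Gdf10.

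Other genes of the pathway also differed between the sorted populations. Of 16 secreted antagonists, 12 were tested in the normal colon, and 4 were higher and 2 lower in GFP+ cells by limma (2.97% and 3.01% of all genes), with a median of -0.27 on the log2 scale against 0.00 for all genes. Nbl1 (2.16) and Fst (1.89), both binding ligands in the extracellular space, were the highest, and Grem1 (-4.23) was the lowest. Grem1 was at 50, 92 and 52 in GFP+ and 1112, 1252 and 1198 in GFP- cells, without overlap. In the DSS colon 3 of 13 antagonists were higher and 7 lower (8.22% and 8.9% of all genes), with a median of -1.20 against 0.01, and Grem1 was at 223, 80 and 147 in GFP+ and 2914, 2690 and 3318 in GFP- cells (-4.41 ± 0.30, limma adjusted p = 1.1e-06). The small intestine gave 1 lower of 12 tested in GFP high over GFP- cells (0.5% of all genes), Grem1, at 114, 127 and 197 against 1168, 737 and 1027 (-2.75 ± 0.34, limma adjusted p = 0.0025). GFP low cells were between them at 307, 491 and 482.

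With DSS, Grem1 rose in both populations, from 42, 77 and 44 to 260, 94 and 172 in GFP+ cells (1.61 ± 0.36, limma adjusted p = 0.012) and from 936, 1057 and 1009 to 3421, 3170 and 3899 in GFP- cells (1.80 ± 0.25, limma adjusted p = 0.001). No DSS library overlapped a normal one. Of the antagonists, 5 of 13 were higher and 3 lower with DSS in GFP- cells, where 10.3% of all genes passed in either direction, and 2 of 12 higher and 3 lower in GFP+ cells, where 19.7% did. Chrdl2, a chordin-like gene, was the highest in either population, at 4.09 in GFP- cells (8, 5 and 4 to 148, 90 and 97) and 2.32 in GFP+ cells (6, 2 and 3 to 17, 22 and 24).

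Id1, a direct target of SMAD signalling, was at 7121, 4243 and 7555 in normal GFP+ and 2275, 2089 and 1247 in GFP- cells. All GFP+ libraries were higher, by 1.76 ± 0.34 (limma adjusted p = 0.012). With DSS it was at 3405, 5208 and 4353 against 682, 1064 and 714, a log2 fold change of 2.40 ± 0.22 (limma adjusted p = 2.1e-06). Of 9 targets and feedback genes tested, 1 was higher and 0 lower in the normal colon (5.98% of all genes passed in either direction), and 4 were higher and 2 lower in the DSS colon (17.1%), among them Id2 (1.56), the other of the 2 highest, and Smad7 (-0.99) and Bambi (-0.93), both inhibitors of the pathway. In the small intestine Id1 was at 171, 564 and 209 in GFP high and 94, 8 and 404 in GFP- cells. These overlapped (limma adjusted p = 0.71). Of the targets 0 of 8 passed, where 0.894% of all genes did.

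Receptors and transducers were counted against the same shares, 5.98% of all genes in the normal and 17.1% in the DSS colon. In the normal colon 1 of 10 receptors and co-receptors tested was higher in GFP+ cells, Neo1 (1.07), a receptor of repulsive guidance molecules, and 1 lower, the co-receptor Rgma (-0.99), while 0 of 4 SMAD transducers passed. In the DSS colon 1 of 9 was higher, Neo1 (0.93), and 3 were lower, the lowest being the co-receptor Rgmb (-1.56) and the type I receptor Bmpr1a (-1.05), and Smad1 was lower (-1.07). In GFP high over GFP- cells of the small intestine 0 of 10 receptors and 0 of 3 transducers passed. Only 0.894% of all genes passed there, so these counts do not set the 2 gene lists apart from other genes. Of 16 other ligands of the family, 5 were tested in the normal colon, with 1 higher and 0 lower, and 6 in the DSS colon, with 3 higher and 2 lower, against those shares of all genes. Inhba, the activin A subunit, was higher in colon GFP+ cells (3.33 in the normal, 2.09 in the DSS colon) and rose with DSS by 1.38 in GFP+ and 2.60 in GFP- cells.

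Enzymes that process ligands and procollagen also differed. Pcsk6, a proprotein convertase that can cleave ligand precursors, was at 3858, 4014 and 2923 in normal GFP+ and 1492, 930 and 1178 in GFP- cells (1.60, limma adjusted p = 0.0072). It was also higher in DSS GFP+ cells (2.15) and in GFP high cells (2.34 over GFP-), and it fell with DSS by 1.43 in GFP+ and by 1.98 in GFP- cells on the log2 scale. Pcsk5 was lower in GFP+ cells (-1.27 in the normal, -1.19 in the DSS colon). Pcolce2, an enhancer of the procollagen cleavage that Bmp1 performs, was at 242, 319 and 194 in normal GFP+ and 902, 1356 and 2839 in GFP- cells (-2.61, limma adjusted p = 0.0027), and it was lower in GFP high than in GFP- cells (-3.31). The colon values of 3 genes in these lists were within 10% of those of an opposite-strand neighbour, namely those of Pcsk7 (with Tagln), Fstl3 (with Prss57) and Eng (with Fpgs), and the counts above include them where they passed.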

How the data were processed

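RNA from freshly isolated cells was made into QuantSeq 3' libraries and sequenced on an Ion Proton, per the labels. TopHat2, Bowtie2, DESeq and the mm10 build are named in the submitters' processing notes as used by the submitters. For the read counter, annotation and strand setting, no source used here gives a name. The values deposited by the authors are a score, gene counts normalised across samples, per the file headers, and given as whole numbers. The log2 fold changes, and the p-values and FDR of a DESeq test by the authors, were deposited with them, per the file headers.

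The 8 genes and all gene lists were chosen with earlier results of these data known. Samples were grouped by the labels. A gene was tested where its mean reached 10 in either compared group, on log2(value + 1) with limma 3.58.1 in R 4.3.3 (trend and robust variance, only the compared groups, no replicate block), adjusted over all genes tested by Benjamini-Hochberg, with a threshold of 0.05. Each fold change is on that scale and understates changes of low genes. There were 15 planned comparisons and 1 added after the values were seen. The scripts were tested on simulated data. Intervals on reads cover counting error only. Named pathway genes were at most the 2 highest and 2 lowest past the threshold in each list, with Grem1 and Id1 always given. The values of 1 antagonist gene that the rule names are not reported here. Alternatives were equal library totals, a pseudocount of 5, no filter, a minimum mean of 50, no trend or robust variance, all groups in 1 fit, a replicate block and each library left out.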

Additional observations from a re-analysis of the deposited data

Results flagged for a closer look

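The effect of the GFP sort on Bmp6 differed between tissues by a test of the difference itself. GFP high over GFP- cells of the small intestine minus GFP+ over GFP- cells of the normal colon was 2.72 on the log2 scale, with a limma adjusted p of 0.034. The colon value cannot be told apart from that of Txndc5, and the tables of the 2 tissues were normalised separately. The comparison was chosen after the values were seen, and by limma the call was lost without any 1 of 10 of the 12 libraries, all but small intestine GFP- library 3 and GFP high library 1 (adjusted p = 0.062 to 0.14).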

How the results depend on the processing

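Each alternative changed 1 choice. With equal library totals the log2 fold change of Bmp5 in GFP- cells (DSS over normal) became -0.032 and that of Bmp1 in GFP high over GFP low cells 0.036, and 3 genes passed in DSS GFP- over unsorted cells, as without trend or robust variance. That scaling moved the median of all genes by 0.106 in GFP high over GFP- cells, 0.133 in normal GFP+, -0.175 in DSS GFP- and 0.118 in GFP high over unsorted cells. Without trend or robust variance 1 gene passed for GFP high over GFP- cells, 0 for GFP low over GFP- cells, 0 for GFP high over GFP low cells and 0 for the tissue difference. With a mean of at least 50, 2 passed for GFP high over GFP- cells and 1 for normal GFP- over unsorted cells. With all groups in 1 fit, 3 (Bmp3, Bmp4 and Bmp6) passed for DSS in GFP- cells and 0 for GFP high over GFP low cells. A pseudocount of 5 gave 2 for the tissue difference. The causes of these changes were not tested.

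Correlations of deviations cannot show whether samples of the same replicate number came from the same mouse. No comparison with 3 shared numbers had every correlation over 0.1. For DSS over normal they were -0.05, -0.08 and -0.00 in GFP+ and 0.12, 0.01 and 0.17 in GFP- cells. Between DSS GFP- and unsorted cells they were 0.36, 0.04 and 0.29, and between GFP high and GFP low cells 0.10, 0.23 and 0.08. Those between GFP low and GFP- cells were 0.04, -0.30 and -0.07. With the replicate block, 2 genes (Bmp4 and Bmp6) passed for DSS in GFP- cells, 6 (with Bmp1) for DSS GFP+ over GFP- cells and 0 for GFP low over GFP- cells, while all calls went from 84 to 43 in the latter, from 47 to 91 for GFP high over GFP low and from 1543 to 845 for small intestine GFP- over unsorted cells.

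Counts of all genes past the threshold also moved with all groups in 1 fit, to 2068 from 1341 for DSS in GFP- cells, 216 from 111 for GFP high over GFP-, 21 from 47 for GFP high over GFP low, 1071 from 2300 for GFP high and 1309 from 3067 for GFP low over unsorted cells. Without trend or robust variance they were 21 for GFP high over GFP-, 0 for GFP low over GFP-, 0 for GFP high over GFP low and 960 for small intestine GFP- over unsorted cells. For GFP low over GFP- cells they were 44 with equal totals, 143 with a pseudocount of 5 and 144 with a mean of at least 50, and a pseudocount of 5 gave 11 for the difference of DSS responses and 20 for the tissue difference.

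With 1 library left out, there passed 5 to 6 of the 8 and 454 to 888 of all genes for normal GFP+ over GFP- cells, 5 to 5 of the 8 and 1431 to 2040 of all genes for DSS GFP+ over GFP- cells, 1 to 2 of the 8 and 1253 to 2611 of all genes for DSS in GFP+ cells, 0 to 2 of the 8 and 360 to 1882 of all genes for DSS in GFP- cells. The ranges were 2 to 3 of the 8 and 24 to 104 of all genes for GFP high over GFP- cells, 0 to 1 of the 8 and 6 to 76 of all genes for GFP low over GFP- cells, 1 to 3 of the 8 and 14 to 52 of all genes for GFP high over GFP low cells, 4 to 6 of the 8 and 2020 to 4168 of all genes for normal GFP+ over unsorted cells. The ranges were 0 to 2 of the 8 and 1554 to 3367 of all genes for normal GFP- over unsorted cells, 6 to 8 of the 8 and 3925 to 5240 of all genes for DSS GFP+ over unsorted cells, 3 to 5 of the 8 and 3305 to 4324 of all genes for DSS GFP- over unsorted cells, 0 to 7 of the 8 and 0 to 2524 of all genes for GFP high over unsorted cells. The ranges were 0 to 4 of the 8 and 210 to 2983 of all genes for GFP low over unsorted cells, 0 to 2 of the 8 and 0 to 1627 of all genes for small intestine GFP- over unsorted cells, 0 to 0 of the 8 and 2 to 15 of all genes for the difference of DSS responses, 0 to 1 of the 8 and 0 to 38 of all genes for the tissue difference. The log2 fold changes that then changed sign, none of which had passed the threshold with all libraries, ran for Bmp4 from -0.46 to 0.32, Bmp6 from -0.071 to 0.22 (DSS GFP+ over GFP- cells), for Bmp1 from -0.35 to 0.12, Bmp2 from -0.39 to 0.20, Bmp5 from -0.018 to 0.29, Bmp7 from -0.22 to 0.21 (DSS in GFP- cells), for Bmp1 from -0.0019 to 0.70, Bmp2 from -0.15 to 0.39 (GFP high over GFP- cells), for Bmp4 from -0.43 to 0.029 (GFP low over GFP- cells). Others ran for Bmp1 from -0.27 to 0.34, Bmp4 from -0.28 to 0.12, Bmp6 from -0.58 to 0.016 (GFP high over GFP low cells), for Bmp2 from -0.44 to 0.16 (normal GFP- over unsorted cells), for Gdf10 from -1.06 to 0.74 (GFP low over unsorted cells), for Bmp1 from -0.36 to 0.10, Bmp2 from -0.59 to 0.017, Bmp4 from -0.77 to 0.032 (the difference of DSS responses).

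Few reads limit Bmp3 in GFP- cells of the DSS colon and small intestine and Bmp7 in small intestine GFP- cells. They also limit Gdf10 in GFP+ and GFP high cells. The fold changes of these genes also shrink with a larger pseudocount.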
